A study of Homo sapiens with 3 samples.

Results

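The BCL2 family decides whether the mitochondrial outer membrane stays intact, and 10 genes around it were followed here in CaSki, a cervical epidermoid carcinoma cell line. They were chosen as a list of symbols and comprise 4 pro-survival genes (MCL1, BCL2, BCL2L1 and BCL2L2), 3 BH3-only genes (PMAIP1, BBC3 and BCL2L11), the 2 pore-forming effectors BAX and BAK1, and TRIM17, which encodes a ubiquitin ligase for MCL1. All 10 were among the 23277 gene symbols of the deposited tables, and 9 of them passed the level filter, a 3-library average of 1 FPKM or more, as did 11398 genes in all. FPKM counts fragments relative to transcript length and to the mapped fragments of the library. BCL2 was the member below the filter.

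Total RNA was sequenced from 3 groups with 1 library each. The first carried FLAG-tagged NANOG in the retroviral vector pMSCV and received an siRNA against HDAC1 (NANOG siHDAC1). The second carried the same NANOG vector and received a control siRNA against GFP (NANOG siGFP), and the third carried pMSCV without an insert and received the GFP siRNA (empty vector siGFP). All 3 therefore share the vector backbone and a transfection, and the sources used here do not say whether the transduced cells were clones or pools. NANOG, a homeodomain protein, maintains pluripotency, and HDAC1 removes acetyl groups from histones in corepressor complexes. With 1 library a group no difference has a replicate check, so no error, interval or p-value is given, and a gap between values cannot be set against the spread between cultures. A combination of empty vector and siHDAC1 was not analysed here. In these bulk samples, fewer cells expressing a gene and less RNA per cell cannot be told apart.

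As background, MCL1, BCL2, BCL-XL (from BCL2L1) and BCL-W (from BCL2L2) hold BAX and BAK in check, and BH3-only proteins bind into a groove of these survival proteins and release the effectors. NOXA, the product of PMAIP1, binds MCL1 and promotes its breakdown, whereas PUMA (from BBC3) and BIM (from BCL2L11) bind all of the survival proteins. MCL1 is a short-lived protein whose amount depends on ubiquitin ligases and deubiquitinases as well as on its mRNA, and TRIM17 was described as one of its ligases in mouse neurons. As recalled from the study, PMAIP1 and TRIM17 were of interest as genes that NANOG might repress through HDAC1, with stability of the MCL1 protein as the outcome. The values below are mRNA levels and hold no measure of protein stability.

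The labels were checked first. NANOG stood at 325 FPKM in NANOG siHDAC1 cells, 298 FPKM in NANOG siGFP cells and 0.0357 FPKM in empty vector siGFP cells. HDAC1 stood at 12.8 FPKM in NANOG siHDAC1 cells, 108 FPKM in NANOG siGFP cells and 19.0 FPKM in empty vector siGFP cells, so that the siRNA and the vector both went with a different HDAC1 level. Of 10 markers of squamous carcinoma cells, 9 were at 1 FPKM or more in every library; the exception, TP63, lay between 0.785 and 1.29 FPKM. Summed levels of 5 fibroblast, 4 leukocyte and 3 endothelial markers each stayed under 1 FPKM in every library, with PTPRC and COL3A1 at 0 in both NANOG libraries; COL1A2, at 0.948 FPKM in NANOG siGFP cells, was the highest of them. The values summed to 600749 FPKM in the NANOG siHDAC1 library, 681947 FPKM in the NANOG siGFP library and 660990 FPKM in the empty vector siGFP library, and symbols of small RNAs held 16.0% of the sum in the NANOG siHDAC1 library, 23.1% in the NANOG siGFP library and 21.2% in the empty vector siGFP library. Read counts are not in the tables, so the number of fragments behind a value is unknown. Among 2156 genes under 0.3 FPKM, the commonest ratio of values was 0.982 for either NANOG library over empty vector siGFP, which bears on relative depth only.

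The transcripts covered a wide range of levels, and the order among them was nearly fixed. FPKM is scaled to transcript length, so levels of different genes can be set side by side. In every library BAX and BCL2L1 were the 2 most abundant of the 10, followed by PMAIP1, MCL1, BBC3, BAK1, BCL2L2, BCL2L11, TRIM17 and BCL2. BAX stood above BCL2L1 in both NANOG libraries, and BCL2L1 stood above BAX in the empty vector siGFP library. BAX exceeded between 95.0% and 96.3% of the 11398 compared genes, MCL1 between 83.9% and 87.9%, and TRIM17 between 11.3% and 18.2%.

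**Figure D1:**
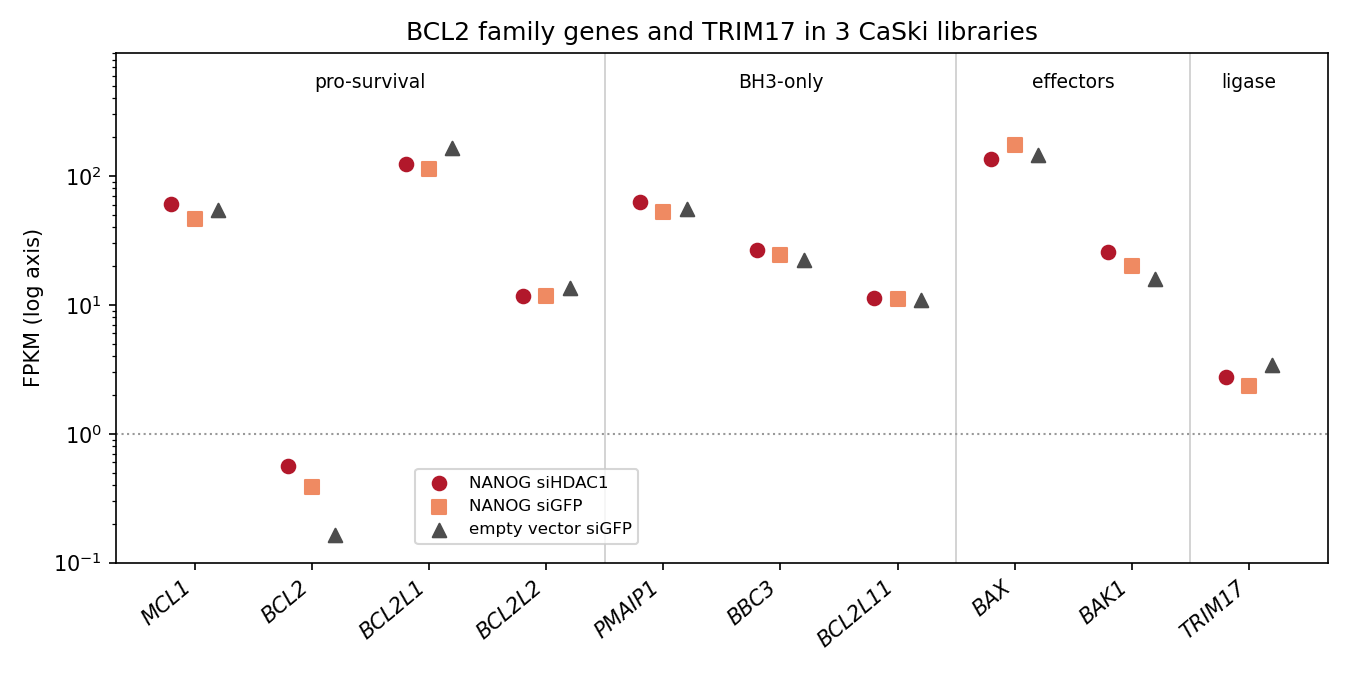
FPKM on a log axis for each of the 10 genes, with 1 point for each library: NANOG siHDAC1 (circles), NANOG siGFP (squares) and empty vector siGFP (triangles). The dotted line marks 1 FPKM; only BCL2 lies below it, while BAX and BCL2L1 lie above 100 FPKM in every library.

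Among the pro-survival genes, MCL1 and BCL2L1 made up nearly all of the transcript and differed between libraries in unlike ways. MCL1 stood at 61.0 FPKM in NANOG siHDAC1 cells, 46.7 FPKM in NANOG siGFP cells and 54.1 FPKM in empty vector siGFP cells. The NANOG siHDAC1 library was thus the highest and the NANOG siGFP library the lowest, with the empty vector library between them. The difference of log2(FPKM + 1) was 0.38 for NANOG siHDAC1 against NANOG siGFP, -0.21 for NANOG siGFP against empty vector siGFP and 0.17 for NANOG siHDAC1 against empty vector siGFP. These comparisons share libraries, so a low NANOG siGFP value enters the first 2 of them with opposite signs. The table has 1 value a symbol, which does not separate the long survival form of MCL1 from its short form.

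BCL2L1 had the lowest difference of the 9 compared members for NANOG siGFP against empty vector siGFP. It stood at 124 FPKM in NANOG siHDAC1 cells, 112 FPKM in NANOG siGFP cells and 164 FPKM in empty vector siGFP cells. Both NANOG libraries were below the empty vector library, by -0.40 for NANOG siHDAC1 and by -0.54 for NANOG siGFP on the log2(FPKM + 1) scale, and they were closer to each other, at 0.14 for NANOG siHDAC1 against NANOG siGFP. BCL2L1 also encodes a short form with the opposite activity, which the value does not separate.

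BCL2L2 stood at 11.6 FPKM in NANOG siHDAC1 cells, 11.6 FPKM in NANOG siGFP cells and 13.5 FPKM in empty vector siGFP cells. Its difference was -0.20 for either NANOG library against empty vector siGFP and 0.00 between the NANOG libraries. The read-through symbol BCL2L2-PABPN1, which overlaps BCL2L2, was listed at 38.5 FPKM in NANOG siHDAC1, 39.4 FPKM in NANOG siGFP and 36.4 FPKM in empty vector siGFP cells, so the split of fragments between the 2 symbols is uncertain. BCL2 was barely present, at 0.558 FPKM in NANOG siHDAC1 cells, 0.389 FPKM in NANOG siGFP cells and 0.163 FPKM in empty vector siGFP cells. Its differences on the log2(FPKM + 1) scale (0.17 for NANOG siHDAC1 against NANOG siGFP, 0.26 for NANOG siGFP against empty vector siGFP and 0.42 for NANOG siHDAC1 against empty vector siGFP) understate the ratio of such low values, and it enters none of the counts below.

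PMAIP1 was the most abundant BH3-only gene, and its NANOG siGFP and empty vector siGFP values were close. It stood at 62.5 FPKM in NANOG siHDAC1 cells, 52.9 FPKM in NANOG siGFP cells and 55.2 FPKM in empty vector siGFP cells. NANOG siGFP was again the lowest library and NANOG siHDAC1 the highest, and the difference was 0.24 for NANOG siHDAC1 against NANOG siGFP, -0.06 for NANOG siGFP against empty vector siGFP and 0.17 for NANOG siHDAC1 against empty vector siGFP. Of all compared genes, 78.8% differed by less than PMAIP1 in the first of these comparisons, 16.7% in the second and 55.2% in the last.

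BBC3 and BCL2L11 had a different order from PMAIP1, with the empty vector library lowest. BBC3 stood at 26.6 FPKM in NANOG siHDAC1 cells, 24.5 FPKM in NANOG siGFP cells and 22.1 FPKM in empty vector siGFP cells. Its differences were 0.12 for NANOG siHDAC1 against NANOG siGFP, 0.14 for NANOG siGFP against empty vector siGFP and 0.26 for NANOG siHDAC1 against empty vector siGFP, just inside the 1.2-fold line used below. BCL2L11 was the steadiest of the 10, at 11.3 FPKM in NANOG siHDAC1 cells, 11.1 FPKM in NANOG siGFP cells and 10.9 FPKM in empty vector siGFP cells. Its highest value was 1.03 times its lowest.

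Both effectors were higher for NANOG siGFP against empty vector siGFP, but they went opposite ways for NANOG siHDAC1 against NANOG siGFP. BAK1 stood at 25.6 FPKM in NANOG siHDAC1 cells, 19.9 FPKM in NANOG siGFP cells and 15.8 FPKM in empty vector siGFP cells, a stepwise order in which both NANOG libraries exceeded the empty vector library. Its differences were 0.35 for NANOG siHDAC1 against NANOG siGFP, 0.31 for NANOG siGFP against empty vector siGFP and 0.66 for NANOG siHDAC1 against empty vector siGFP. The last was the largest difference of any of the 9 compared members in any of the 3 comparisons, and 96.3% of the 11398 genes differed by less in that comparison.

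BAX was instead highest in the NANOG siGFP library. It stood at 135 FPKM in NANOG siHDAC1 cells, 174 FPKM in NANOG siGFP cells and 146 FPKM in empty vector siGFP cells. Its differences were -0.36 for NANOG siHDAC1 against NANOG siGFP, 0.25 for NANOG siGFP against empty vector siGFP and -0.11 for NANOG siHDAC1 against empty vector siGFP. The last sign turns when the libraries are rescaled to TPM, where it is 0.03. BAX transcripts thus outnumbered BAK1 transcripts 5.28 to 1 in NANOG siHDAC1 cells, 8.75 to 1 in NANOG siGFP cells and 9.21 to 1 in empty vector siGFP cells, a ratio within a library that no scaling changes.

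TRIM17, the ligase gene, was low throughout. It stood at 2.77 FPKM in NANOG siHDAC1 cells, 2.34 FPKM in NANOG siGFP cells and 3.43 FPKM in empty vector siGFP cells. The empty vector library was the highest and NANOG siGFP the lowest, with differences of -0.41 for NANOG siGFP against empty vector siGFP, 0.18 for NANOG siHDAC1 against NANOG siGFP and -0.23 for NANOG siHDAC1 against empty vector siGFP. As plain ratios of FPKM these were 0.681, 1.19 and 0.809. The neighbouring family member TRIM11 was at 23.6 FPKM in NANOG siHDAC1 cells, 22.8 FPKM in NANOG siGFP cells and 23.3 FPKM in empty vector siGFP cells.

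**Figure D2:**
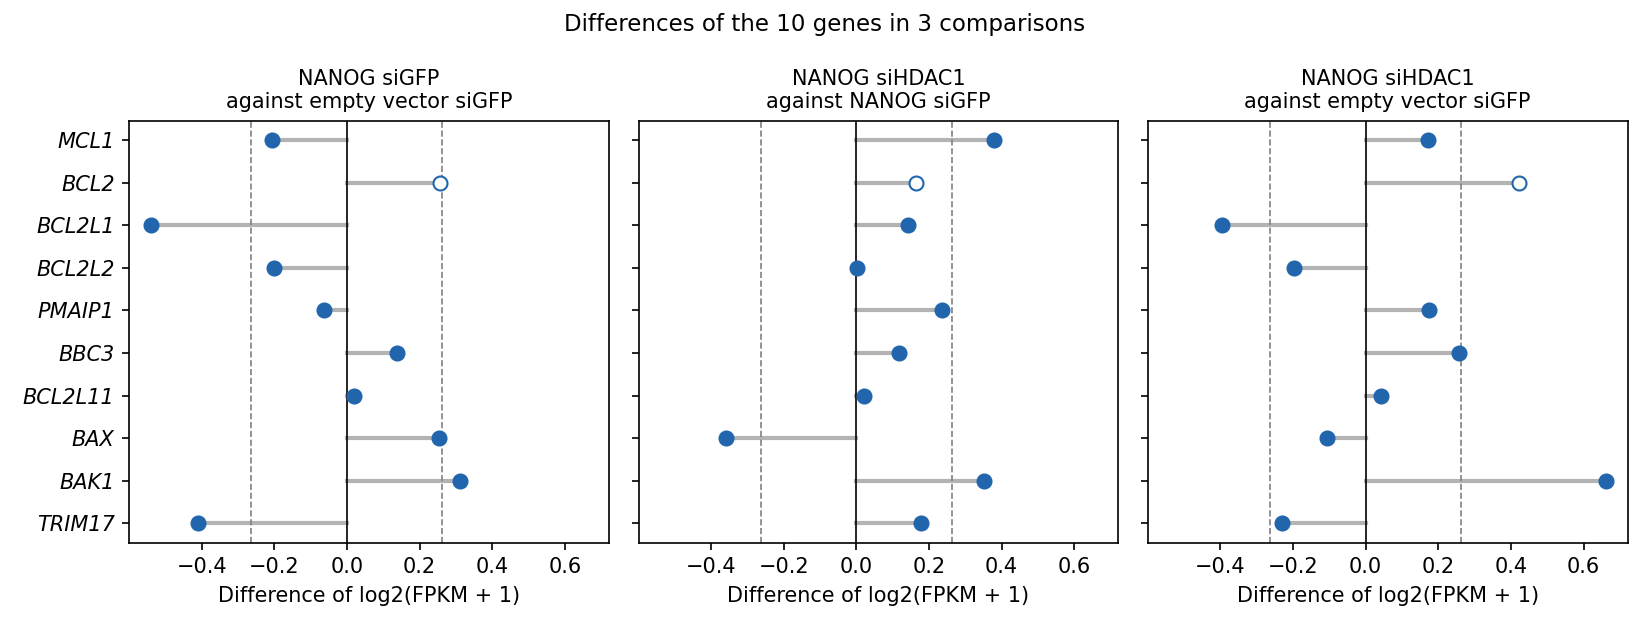
Difference of log2(FPKM + 1) for each gene in the 3 comparisons, with dashed lines at 1.2-fold in either direction; the open circle is BCL2, whose mean is under 1 FPKM. BCL2L1 and TRIM17 lie left of the lines for NANOG siGFP against empty vector siGFP, MCL1 and BAK1 right and BAX left of them for NANOG siHDAC1 against NANOG siGFP, and BAK1 right and BCL2L1 left of them for NANOG siHDAC1 against empty vector siGFP.

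Promoter sequence is shown for 4 members: PMAIP1 and TRIM17, since the study was concerned with their repression, and BCL2L1 and BAK1, which had the largest differences downward and upward. RefSeq windows (build GRCh38.p14, matched by symbol) were found for 8 of the 10 members, and 250 bases ending just before the annotated start are printed 5′ to 3′ on the gene's strand. Capitals mark GGGCGG (the GC box, bound by SP1 in many promoters), TGACGT (part of the cAMP response element) and ATTA (the core that homeodomain proteins such as NANOG recognise), each on either strand. No marked match overlaps another in these windows.
PMAIP1, chr18:59899746-59899995, plus strand: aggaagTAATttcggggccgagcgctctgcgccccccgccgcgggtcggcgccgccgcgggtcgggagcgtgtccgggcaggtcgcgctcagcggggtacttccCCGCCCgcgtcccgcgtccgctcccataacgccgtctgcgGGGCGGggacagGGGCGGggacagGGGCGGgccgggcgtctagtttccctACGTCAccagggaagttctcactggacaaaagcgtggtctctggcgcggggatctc
TRIM17, chr1:228416862-228417111, minus strand: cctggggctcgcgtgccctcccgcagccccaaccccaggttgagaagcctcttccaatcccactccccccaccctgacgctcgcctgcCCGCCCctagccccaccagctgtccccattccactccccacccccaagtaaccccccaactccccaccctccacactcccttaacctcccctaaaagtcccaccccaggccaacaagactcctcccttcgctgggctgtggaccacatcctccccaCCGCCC
BCL2L1, chr20:31723964-31724213, minus strand: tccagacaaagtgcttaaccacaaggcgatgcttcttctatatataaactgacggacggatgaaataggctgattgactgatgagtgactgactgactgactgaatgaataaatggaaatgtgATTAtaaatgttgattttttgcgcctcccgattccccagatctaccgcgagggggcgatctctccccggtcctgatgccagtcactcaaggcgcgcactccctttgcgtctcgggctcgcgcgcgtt
BAK1, chr6:33580277-33580526, minus strand: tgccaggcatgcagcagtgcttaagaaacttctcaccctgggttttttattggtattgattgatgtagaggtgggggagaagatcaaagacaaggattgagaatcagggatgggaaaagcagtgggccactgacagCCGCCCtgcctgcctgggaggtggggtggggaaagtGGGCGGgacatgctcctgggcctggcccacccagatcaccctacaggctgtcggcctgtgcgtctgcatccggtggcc

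The PMAIP1 window held 4 GC boxes, 1 cAMP response element sequence and 1 ATTA, and 72.8% of its bases were G or C. The TRIM17 and BAK1 windows held 2 GC boxes each and neither of the other sequences. The BCL2L1 window, the first of 2 listed for that gene, held 1 ATTA, and the other window, not printed, held 0 matches. Of 35116 windows of this length in the table, 42.6% held a GC box, 7.10% held TGACGT and 47.4% held ATTA. A match is a string of letters, not evidence of binding, and the start site that CaSki cells use is not in the files.

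The members' counts were read against all 11398 genes compared, with a difference of at least 1.2-fold on the log2(FPKM + 1) scale taken as called. For NANOG siGFP against empty vector siGFP, 1 of the 9 members (BAK1) was called higher, where 17.6% of all genes were, and 2 (BCL2L1 and TRIM17) were called lower, where 19.9% of all genes were. These shares are near the background, so they are not a result about the members. The median difference was -0.06 for the members and -0.01 for all genes.

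For NANOG siHDAC1 against NANOG siGFP, 2 of 9 members (MCL1 and BAK1) were called higher, where 8.24% of all genes were, and 1 (BAX) was called lower, where 9.04% were. The median difference was 0.14 for the members and 0.01 for all genes, and 8 of 9 members were above 0, where 53.4% of all genes were. The 8 include BCL2L2, at only 0.0025. It was below 0 with scaling by the upper quartile (-0.011) or by the median ratio (-0.0027), so this count depends on the scaling. Of all genes, 92.4% differed by less than MCL1 and 91.4% by less than BAX in this comparison. Rescaling to TPM, which gives the libraries equal sums, moved the median of all genes to 0.18 and that of the members to 0.33. It called 6 members higher and 0 lower, where 32.7% of all genes were higher and 3.90% lower.

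For NANOG siHDAC1 against empty vector siGFP, 1 of 9 members (BAK1) was called higher, where 11.8% of all genes were, and 1 (BCL2L1) was called lower, where 14.8% were. The median difference was 0.04 for the members and 0.00 for all genes. With TPM the median of all genes was 0.13, and 4 members were called higher and 0 lower, where 28.0% of all genes were higher and 8.70% lower. BAK1 was the one member that differed by at least 1.5-fold in any comparison, and 0 differed by 2-fold.

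**Figure D3:**
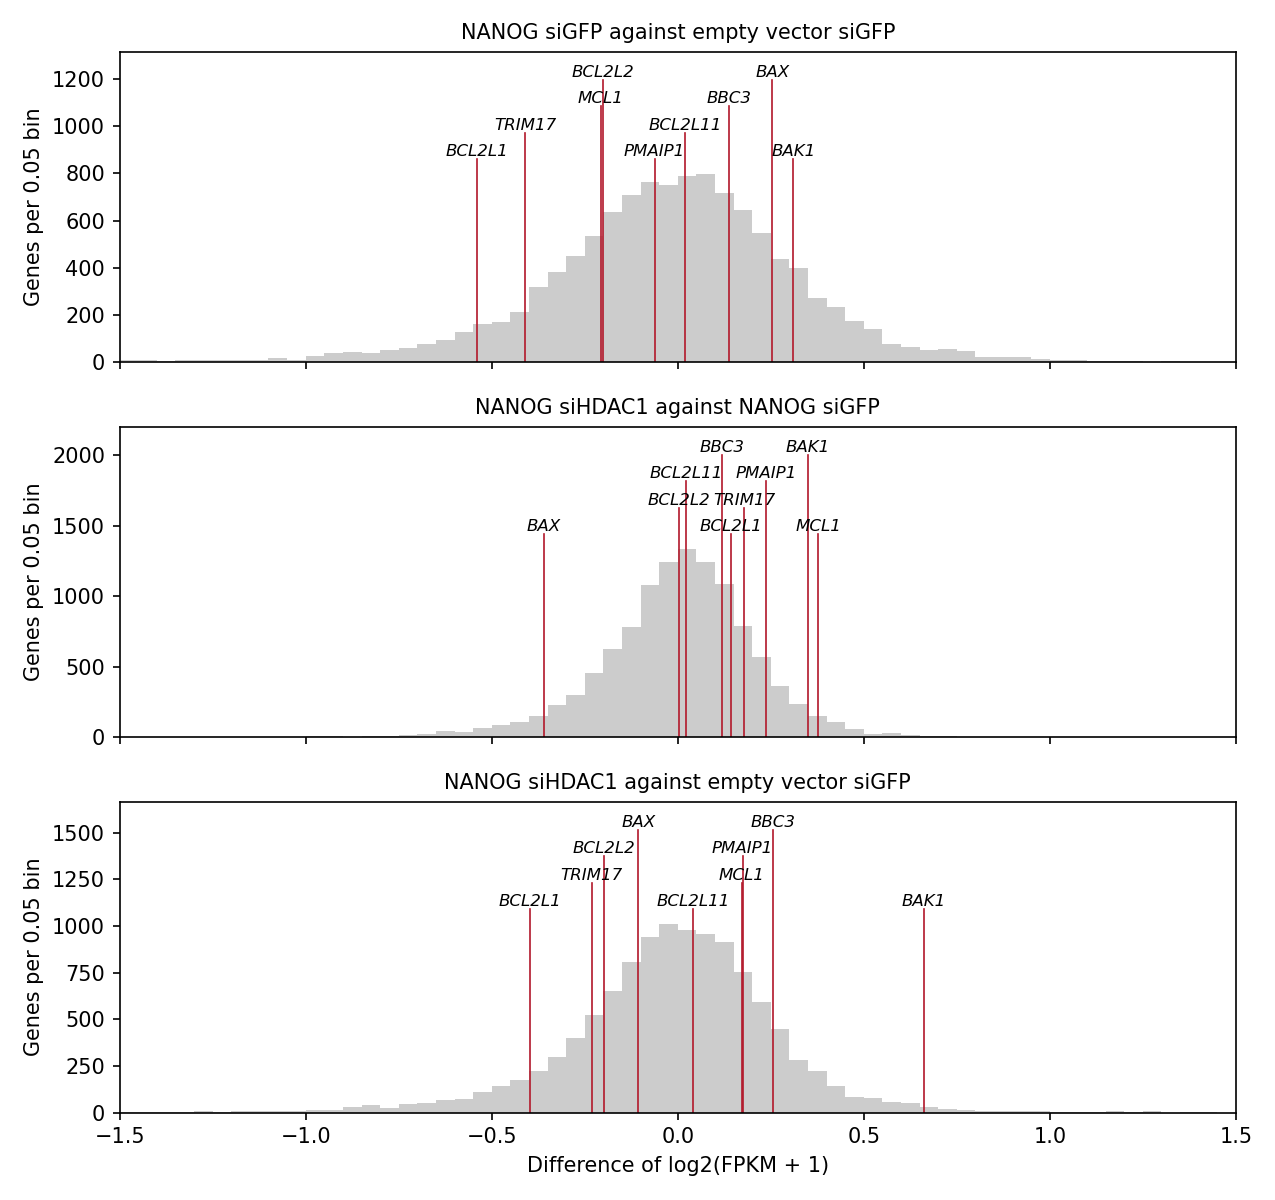
Number of compared genes in each 0.05-wide bin of the difference of log2(FPKM + 1) (grey bars, 1 panel for each comparison; genes beyond 1.5 in size are not drawn), with the 9 compared members as red lines. Most members sit inside the bulk of all genes; BAK1, at 0.66 in the lowest panel, lies furthest out.

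Ratios within a library were taken next, since they do not depend on how a library is scaled. MCL1 and PMAIP1 transcripts were close to equal: the ratio of MCL1 to PMAIP1 was 0.977 in NANOG siHDAC1 cells, 0.884 in NANOG siGFP cells and 0.979 in empty vector siGFP cells. MCL1 relative to BCL2L1 was 0.491 in NANOG siHDAC1 cells, 0.416 in NANOG siGFP cells and 0.330 in empty vector siGFP cells. MCL1 thus made up 30.9% of the summed FPKM of the 4 pro-survival genes in NANOG siHDAC1 cells, 27.3% in NANOG siGFP cells and 23.3% in empty vector siGFP cells, whereas BCL2L1 made up 62.9% in NANOG siHDAC1 cells, 65.7% in NANOG siGFP cells and 70.7% in empty vector siGFP cells.

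The sums themselves differed by role. The pro-survival genes summed to 197 FPKM in NANOG siHDAC1 cells, 171 FPKM in NANOG siGFP cells and 232 FPKM in empty vector siGFP cells, an order set mostly by BCL2L1. The 3 BH3-only genes summed to 100.4 FPKM in NANOG siHDAC1 cells, 88.4 FPKM in NANOG siGFP cells and 88.3 FPKM in empty vector siGFP cells. BAX and BAK1 summed to 161 FPKM in NANOG siHDAC1 cells, 194 FPKM in NANOG siGFP cells and 162 FPKM in empty vector siGFP cells, so this sum was highest where the pro-survival sum was lowest. The pro-survival sum was 1.97 times the BH3-only sum in NANOG siHDAC1 cells, 1.94 times in NANOG siGFP cells and 2.62 times in empty vector siGFP cells. Relative to the effector sum it was 1.23 in NANOG siHDAC1 cells, 0.883 in NANOG siGFP cells and 1.43 in empty vector siGFP cells. The sums hold only the members followed here, so further family genes such as BAD, BID, BIK and BOK, named below, are not in them. These are ratios of transcripts, and the proteins differ in stability and translation, which was not measured.

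**Figure D4:**
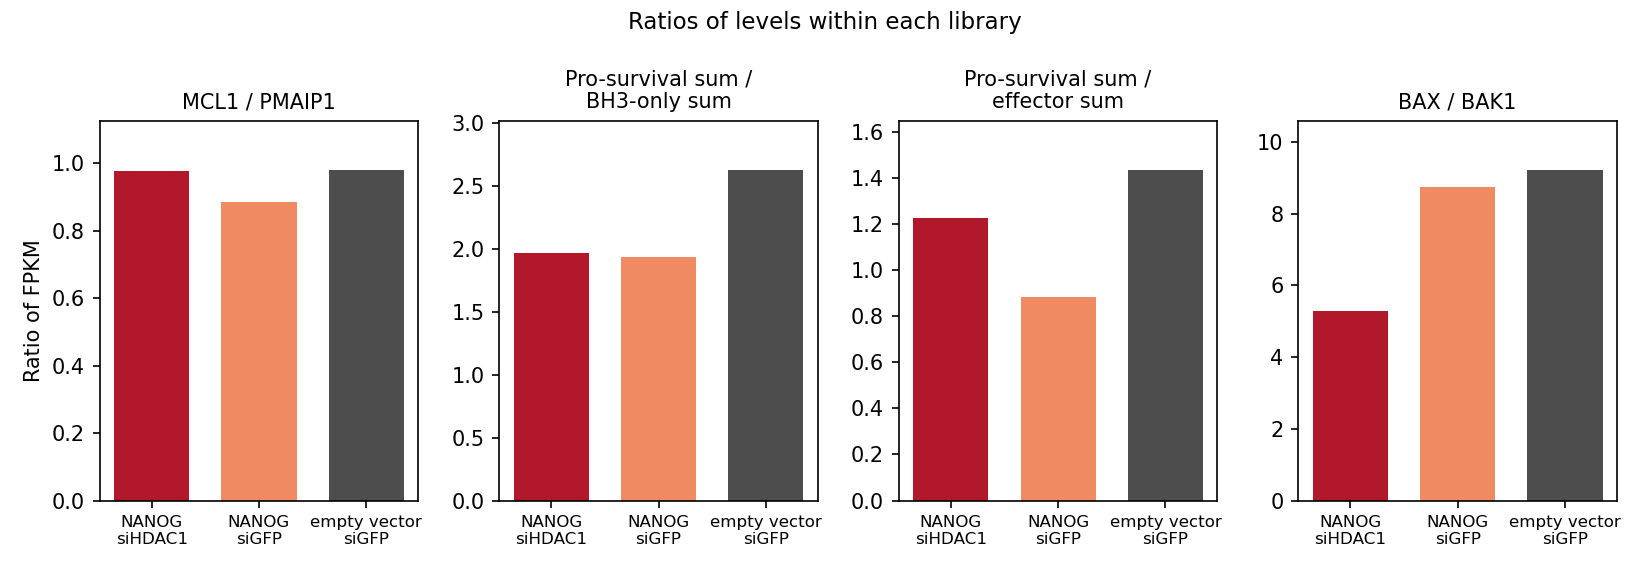
Ratios of FPKM within each library (bars from 0; NANOG siHDAC1, NANOG siGFP and empty vector siGFP from left to right) for MCL1 over PMAIP1, the pro-survival sum over the BH3-only sum, the pro-survival sum over the effector sum, and BAX over BAK1. The sums hold only the members followed here. The pro-survival sum was 2.62 times the BH3-only sum in the empty vector library, against 1.97 and 1.94 times in the NANOG libraries, and BAX over BAK1 was lowest with siHDAC1, at 5.28.

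Other genes of the pathway came from 4 lists of known pathway genes. Of the 14 further BCL2 family genes, 10 were compared, and the low BCL2A1, BCL2L10, BCL2L14 and BCL2L15 were not. For NANOG siGFP against empty vector siGFP, 2 of these 10 were called higher and 5 lower, where 17.6% of all genes were higher and 19.9% lower. The count of higher genes is near the background. The list's median difference was -0.14, against -0.01 for all genes. The mitophagy receptors BNIP3 (-1.52) and BNIP3L (-1.65) had the 2 largest differences, and BOK (-0.91), a relative of BAX and BAK, and the BH3-only gene BIK (-0.89), both named after their values were seen, followed. BIK stood at 10.2 FPKM in NANOG siHDAC1 cells, 8.52 FPKM in NANOG siGFP cells and 16.6 FPKM in empty vector siGFP cells. The 2 called higher were the BH3-only genes HRK (0.58) and BMF (0.53), also named after their values were seen. The BH3-only genes BAD and BID differed by -0.04 to 0.05 over all 3 comparisons.

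For NANOG siHDAC1 against NANOG siGFP, 4 of these 10 genes were called higher and 1 lower, where 8.24% of all genes were higher and 9.04% lower. Their median was 0.16, against 0.01 for all genes. BNIP3 differed by 0.35 and BNIP3L by 0.38, the largest of the list, and both were still below empty vector siGFP cells, by -1.17 and -1.28. BNIP3 stood at 212 FPKM in NANOG siHDAC1 cells, 166 FPKM in NANOG siGFP cells and 480 FPKM in empty vector siGFP cells. For NANOG siHDAC1 against empty vector siGFP, 1 was called higher and 4 lower, where 11.8% of all genes were higher and 14.8% lower, with a median of -0.0022.

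Genes that act on MCL1 turnover were all above the level filter, 12 of 12. With NANOG siGFP against empty vector siGFP, 7 were called higher and 2 lower, where 17.6% of all genes were higher and 19.9% lower. The median was 0.28, against -0.01 for all genes, and the count of lower genes is near the background. The 2 lower genes were USP9X (-0.59), which encodes a deubiquitinase that protects MCL1, and GSK3B (-0.55), which encodes a kinase that marks MCL1 for breakdown. USP9X stood at 20.04 FPKM in NANOG siHDAC1 cells, 16.9 FPKM in NANOG siGFP cells and 25.9 FPKM in empty vector siGFP cells. The 7 higher genes were the ERK phosphatase gene DUSP6 (0.48), the deubiquitinase gene USP13 (0.36), XRCC6 (0.34), the ligase subunit genes CDC20 (0.34), BTRC (0.29) and FBXO4 (0.28), and the kinase gene GSK3A (0.28); USP13, CDC20, BTRC, FBXO4 and GSK3A were named after their values were seen. BTRC, FBXO4 and GSK3A lay close to the 1.2-fold limit of 0.26, and how the count of 7 holds under other scalings was not tested. DUSP6 stood at 1.54 FPKM in NANOG siHDAC1, 1.27 FPKM in NANOG siGFP and 0.626 FPKM in empty vector siGFP cells. It passed the level filter only through the NANOG libraries, so its call is not a result, though it enters the count of 7 and the median. Genes known to protect MCL1 and genes known to promote its breakdown were among both the higher and the lower ones.

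For NANOG siHDAC1 against NANOG siGFP, 0 of the 12 turnover genes were called higher and 3 lower, where 8.24% of all genes were higher and 9.04% lower. The count of 0 is near the background, and the median was -0.09, against 0.01 for all genes. XRCC6, which encodes the DNA end-binding protein Ku70, differed by -0.36 and HUWE1, a large ubiquitin ligase for MCL1, by -0.29. HUWE1 stood at 32.1 FPKM in NANOG siHDAC1 cells, 39.6 FPKM in NANOG siGFP cells and 40.8 FPKM in empty vector siGFP cells, so the NANOG siHDAC1 library alone was low. For NANOG siHDAC1 against empty vector siGFP, 2 were called higher and 3 lower, where 11.8% of all genes were higher and 14.8% lower. DUSP6, which passed the filter only through the NANOG libraries, was at 0.64 and GSK3B at -0.38, and the median was 0.03.

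Downstream of the mitochondrion, 13 of 14 genes of the caspase cascade were compared. With NANOG siGFP against empty vector siGFP, 3 were called higher and 1 lower, where 17.6% of all genes were higher and 19.9% lower. The 2 largest differences were those of the executioner caspase gene CASP6 (0.62) and of BIRC5 (0.29), which encodes survivin. CASP6 stood at 6.88 FPKM in NANOG siHDAC1 cells, 8.83 FPKM in NANOG siGFP cells and 5.41 FPKM in empty vector siGFP cells. With NANOG siHDAC1 against NANOG siGFP, 1 was called higher and 1 lower, CASP6 (-0.32), where 8.24% of all genes were higher and 9.04% lower. With NANOG siHDAC1 against empty vector siGFP, 2 were called higher and 1 lower, where 11.8% of all genes were higher and 14.8% lower. CASP6 and BIRC3, which encodes an inhibitor of apoptosis protein, both differed by 0.30. The medians of the list were 0.05 for NANOG siGFP against empty vector siGFP, 0.02 for NANOG siHDAC1 against NANOG siGFP and 0.10 for NANOG siHDAC1 against empty vector siGFP. Shares of 13 genes this close to those of all genes are not a result about the cascade.

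Of 10 genes for regulators that act on BH3-only genes, 8 were compared. With NANOG siGFP against empty vector siGFP, 2 of the 8 were called higher and 3 lower, where 17.6% of all genes were higher and 19.9% lower. The lower genes included TP63 (-0.36), named after its values were seen. TP63 stood at 0.785 FPKM in NANOG siGFP cells and 1.29 FPKM in empty vector siGFP cells. It passed the level filter only through the empty vector library, so its call is not a result, though it enters the count of 3 and the median. FOXO3, a transcription factor that activates BCL2L11 and BBC3, differed by -0.48, and ATF4, a stress factor that activates PMAIP1, by -0.42. With NANOG siHDAC1 against NANOG siGFP, 2 were called higher, among them MYC (0.41), and 1 lower, where 8.24% of all genes were higher and 9.04% lower. MYC stood at 109 FPKM in NANOG siHDAC1 cells, 81.8 FPKM in NANOG siGFP cells and 94.5 FPKM in empty vector siGFP cells. Its order of libraries was that of MCL1 and PMAIP1. E2F1, named after its values were seen, had this order too, but its difference for NANOG siGFP against empty vector siGFP was only -0.01. The share of all genes with this order was not counted. E2F1 stood at 37.6 FPKM in NANOG siHDAC1, 33.9 FPKM in NANOG siGFP and 34.1 FPKM in empty vector siGFP cells. A link between these genes was not tested. With NANOG siHDAC1 against empty vector siGFP, 1 was called higher, ATF3 at 0.38, and 1 lower, FOXO3 at -0.28, where 11.8% of all genes were higher and 14.8% lower. The medians were -0.11 for NANOG siGFP against empty vector siGFP, 0.18 for NANOG siHDAC1 against NANOG siGFP and 0.12 for NANOG siHDAC1 against empty vector siGFP. With 8 genes most of these counts are near the background. The 4 lists were not rescaled to TPM, which moved the medians of all genes as given above, and to -0.05 for NANOG siGFP against empty vector siGFP.

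**Figure D5:**
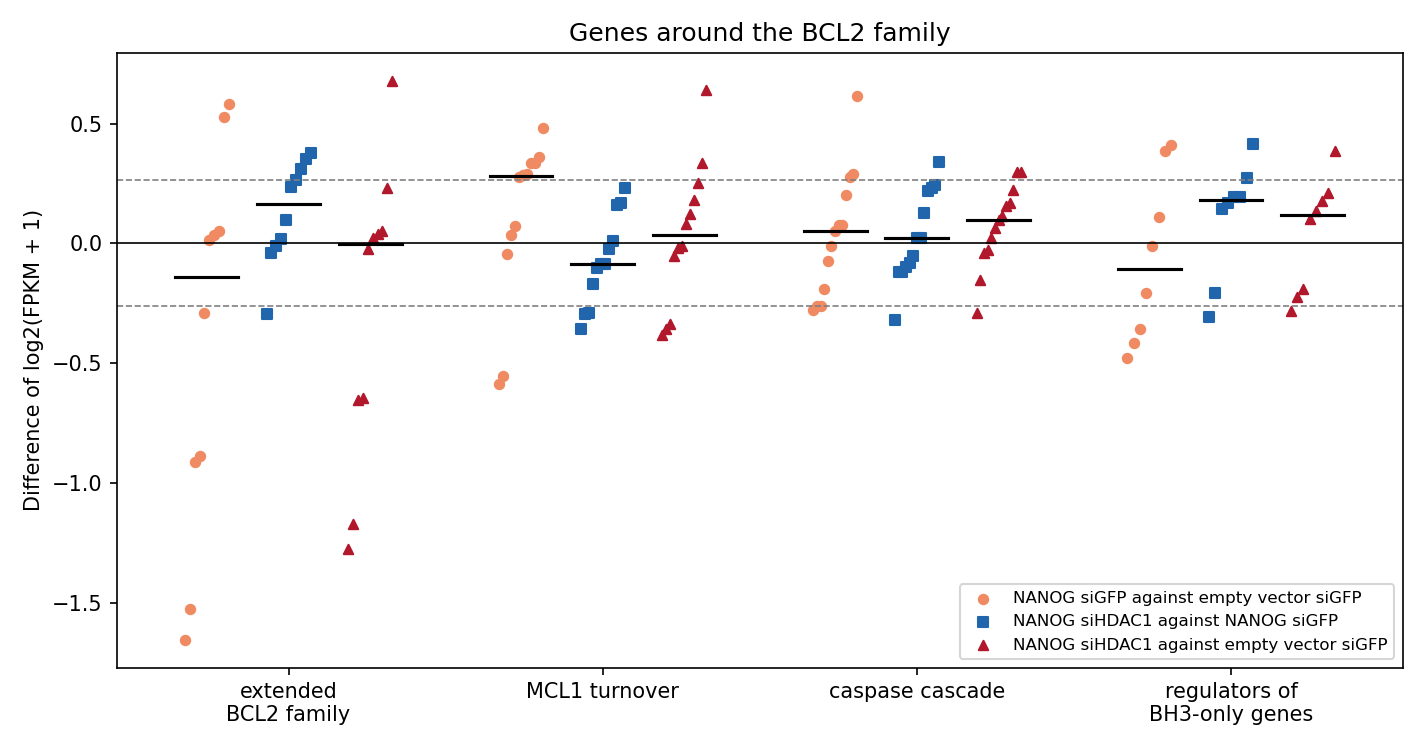
Difference of log2(FPKM + 1) for each compared gene of 4 lists, with circles for NANOG siGFP against empty vector siGFP, squares for NANOG siHDAC1 against NANOG siGFP and triangles for NANOG siHDAC1 against empty vector siGFP. Black bars are list medians and dashed lines mark 1.2-fold; BNIP3L (-1.65) and BNIP3 (-1.52) are the lowest points and the MCL1 turnover list has the highest median, 0.28, for NANOG siGFP against empty vector siGFP.

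Genes with the most similar pattern were sought for MCL1, PMAIP1 and TRIM17 in 8372 genes that averaged 5 FPKM or more, by the Euclidean distance between log2(FPKM + 1) profiles centred over the 3 libraries. The nearest to MCL1 were SYNGR2 (distance 0.0088), BCAT2 (0.014) and PPP2R1B (0.014). SYNGR2, for example, stood at 68.2 FPKM in NANOG siHDAC1 cells, 52.2 FPKM in NANOG siGFP cells and 60.9 FPKM in empty vector siGFP cells. The nearest to PMAIP1 were LINC00339 (0.0018), PSMG4 (0.0053) and PLXNA1 (0.0054), and the nearest to TRIM17 were BZW1 (0.0037), C17orf58 (0.0057) and RAC2 (0.0063). TRIM17 itself averaged 2.85 FPKM, so adding 1 FPKM shrank its differences more than those of its matches. The distances for TRIM17 thus depend on that addition. Within a distance of 0.1 lay 184 genes for MCL1, 591 for PMAIP1 and 555 for TRIM17, so with only 3 libraries such patterns were common.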

How the data were processed

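Total RNA (2 ug a library) was isolated with Trizol and made into stranded TruSeq libraries, per the labels' protocols. The programs TopHat2 and Cufflinks and the genome build hg19 are named, per the submitters' processing notes; their versions, the annotation and the strand setting were not given in the sources used here. Each deposited table holds 1 FPKM value a symbol; the unit was inferred from Cufflinks and the values. FPKM divides by library size, so a few abundant RNAs lower all other values of a library, and reads of overlapping genes can be split wrongly.

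Values were compared as log2(FPKM + 1), keeping genes that averaged 1 FPKM or more and leaving out 1641 symbols of small RNAs. A gene was called at a difference of 1.2-fold or more. No test was possible with 1 library a group. The text names all 10 members, from each further list the 2 genes with the largest differences in each comparison, the 3 nearest profiles, NANOG, HDAC1, and a few genes said to be named after their values were seen; some genes that this rule names are not reported here. TRIM11, BCL2L2-PABPN1, the markers named and the sums and ratios other than MCL1 over PMAIP1 were also added after values were seen. The members, lists and limits were chosen with earlier results of these data known. Alternatives are given in the closing section. The steps were run on data simulated from 1 library without noise. This checked the arithmetic only and not how far single libraries vary. Python 3.11.15, numpy 2.4.6, pandas 2.3.3 and matplotlib 3.10.9 were used.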

Additional observations from a re-analysis of the deposited data

How the results depend on the processing

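With no replicates, a difference was taken to move when it changed by 0.1 or more on the log2 scale. Of 213 recomputed member differences, 195 moved by less, 18 moved and 0 called differences changed sign. Of the 195, 27 with no filter, 24 with a filter at 5 FPKM and 27 with small RNAs kept could not move. Those settings change which genes are compared and leave a member's own difference as it was. Rescaling to TPM, whose sums include the small RNAs, accounted for 17 of the 18. The other was TRIM17 for NANOG siGFP against empty vector siGFP, at -0.54 with a pseudocount of 0.1 FPKM. TPM gave 6 called members and a median of 0.33 for NANOG siHDAC1 against NANOG siGFP, and 4 called members and a median of 0.17 for NANOG siHDAC1 against empty vector siGFP. A pseudocount of 0.1 FPKM also gave 4 called members for NANOG siHDAC1 against empty vector siGFP. At a limit of 1.5-fold, 0, 0 and 1 members were called for NANOG siGFP against empty vector siGFP, NANOG siHDAC1 against NANOG siGFP and NANOG siHDAC1 against empty vector siGFP, and at 2-fold 0 in each. A pseudocount of 0.5 FPKM, no filter, a filter at 5 FPKM, scaling by the upper quartile or the median ratio, and keeping small RNAs left the counts within 1.5 times. No paired analysis was possible because each group held 1 library. Leaving out a library would leave a comparison without a group. The unknown number of fragments limits TRIM17 and BCL2 most, as the lowest values.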
